A study of Owenia fusiformis with 11 samples.

Results

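Gene expression was compared across metamorphosis in Owenia fusiformis, an annelid worm, between the post-metamorphic juvenile and the pre-metamorphic competent larva. The comparison was chosen by stage and assay and comprised 3 of the 11 libraries of the series, 1 from juveniles and 2 from competent larvae. The other 8 libraries profiled open chromatin and were not used here. The juvenile was labelled 3 weeks plus 1 h past fertilization and the competent larvae 3 weeks, and all animals were reared in artificial sea water from adults collected in the wild, with the larvae fed on algae and metamorphosis triggered by adding mud. Each library was made from a pool of whole animals, so that fewer cells of a type and less RNA per cell cannot be told apart. Per the study's methods, samples with the same replicate number came from the same in vitro fertilization. The juvenile library and competent larva replicate 1 carry the same number. The juvenile had no replicate.

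The larva of O. fusiformis, called the mitraria, swims and feeds in the plankton with a long ciliary band and holds a bundle of chaetae, the bristles of annelids. The trunk of the adult grows late, as a rudiment inside the larva, and a larva is called competent once this rudiment is complete and the animal is able to settle. At metamorphosis the trunk is everted and most of the larval body is lost within a short time, so the juvenile is a small bottom-dwelling worm.

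The deposited values are normalized reads per transcript, estimated from pseudoalignment, and 31897 transcripts were summed into 26960 genes by the identifier before its numeric suffix. The sums reached 44094069 normalized reads in the juvenile library, against 39675427 and 36714310 in competent larva replicates 1 and 2. Genes listed at 0 numbered 830 in the juvenile, against 1120 and 408 in the competent larva replicates, and 198 were at 0 in all 3 libraries. The smallest transcript value above 0 was 0.177 in the juvenile, against 0.153 and 0.112 in the replicates, so these counts do not share a common floor. The files pair no identifier with a gene name, and none matched the reference gene table (0 of its 27038 genes). Roles, pathways, sequences and the markers of either stage are therefore not given, and genes are described by identifier, level and place in the numbering.

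To determine how far the transcriptome differed after metamorphosis, 25969 genes above a value of 2 in at least 1 library were tested with limma on log2(value + 1). With 1 juvenile library the spread came from the competent larva replicates alone, and the juvenile was assumed to vary like them. In total 1076 genes (4.14%) were called at an adjusted p under 0.05, of which 528 rose (2.03%) and 548 fell (2.11%) in the juvenile. The split between directions moved with the setting, to 988 higher and 678 lower with a pseudocount of 10, 645 and 849 after quantile normalization, and 595 and 756 with libraries scaled to the same total. Among genes that rose, the median level was 2245 normalized reads in the juvenile, against 57.2 and 52.8 in competent larva replicates 1 and 2, and the median log2 difference was 5.29. Among genes that fell, it was 143 in the juvenile, against 1807 and 1714 in the replicates, with a median log2 difference of -3.69. The calls depended on which features entered the fit, since limma called 0 genes without the filter, where 4648 had an unadjusted p under 0.05, and 0 single transcripts, where 5393 did. On simulated data the fit made more false calls than its nominal rate in most draws.

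**Figure D1:**
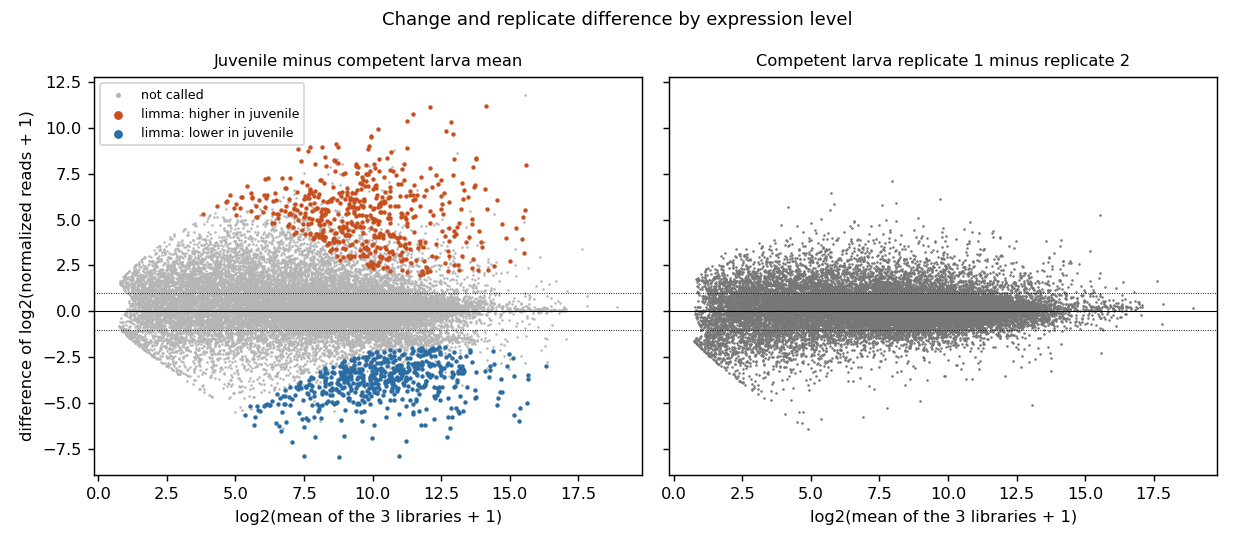
Each point is a gene above a value of 2 in at least 1 library, plotted by log2 of the mean over the 3 libraries plus 1 and by the difference of log2(normalized reads + 1), on the left for the juvenile minus the mean of the competent larva replicates and on the right for replicate 1 minus replicate 2, with dotted lines at a log2 difference of 1 and -1. The 528 and 548 genes that limma called higher (orange) and lower (blue) in the juvenile lie outside most of the replicate cloud. This follows from the test, which takes its spread from the replicates. None of the called genes has a mean of 10 normalized reads or less, where the pseudocount and the wide fitted spread let hardly any gene pass.

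Size was next described without a test, by counting genes whose juvenile level lay more than 2-fold beyond both competent larva replicates on the log2(value + 1) scale. Past this limit 4338 genes (16.7%) were higher and 2661 (10.2%) lower in the juvenile, so 62.0% of these were higher. This share was 49.5% after quantile normalization and 54.7% with all libraries scaled to the same total. The median log2 difference over all tested genes was 0.14 in the deposited values, -0.09 after quantile normalization and -0.07 with equal totals, so the excess of higher genes depended on the scaling. Of the genes past 2-fold, 3372 higher and 2659 lower genes were also past it in the same direction after quantile normalization. All genes called by limma were among the genes past 2-fold.

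The upward changes reached further than the downward ones. More than 16-fold differences were found in 518 genes that were higher and 196 that were lower in the juvenile, and more than 64-fold differences in 126 and 13. Between the competent larva libraries, replicate 1 exceeded replicate 2 more than 16-fold in 53 genes and replicate 2 exceeded replicate 1 in 32. Past 64-fold these numbers were 3 and 3. The replicate counts compare single libraries and the juvenile counts require a difference from both replicates, so the juvenile counts follow the stricter rule. On the pseudocount scale low genes are held below high folds, which limits the counts in both directions.

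**Figure D2:**
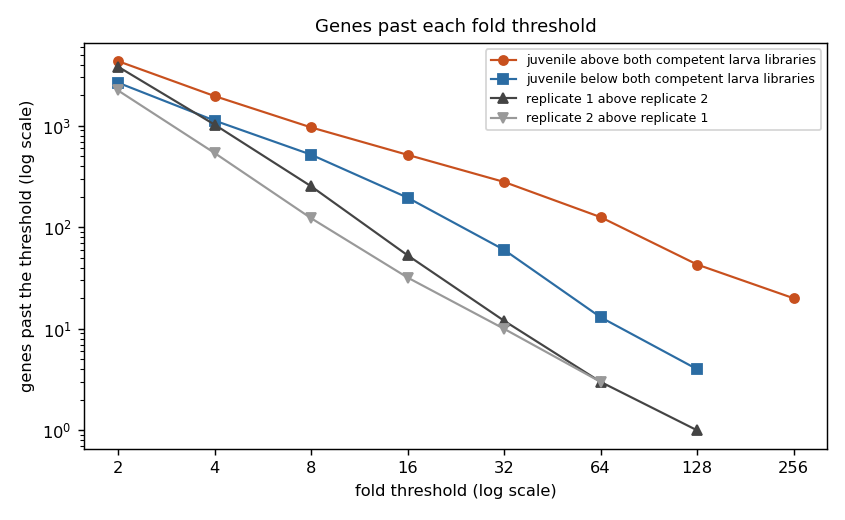
Lines give the number of genes (log scale) past each fold threshold from 2 to 256 (log scale), for the juvenile above or below both competent larva replicates and for replicate 1 above replicate 2 and the reverse; thresholds that no gene passed are not drawn. At 256-fold 20 genes were higher in the juvenile than in both replicates and none was lower.

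Changed genes carried a large part of the normalized reads. The higher genes past 2-fold made up 24.1% of the total in the juvenile, against 5.42% and 3.60% in competent larva replicates 1 and 2. Genes more than 2-fold lower made up 3.72% of the total in the juvenile, against 19.1% and 19.9% in the replicates. The genes that limma called higher alone made up 8.72% in the juvenile, against 0.612% and 0.511% in the replicates. Few genes carried most of these amounts. Of 8906470 normalized reads gained by higher genes over the competent larva mean, 18.0% came from 10 genes and 53.3% from 100, and 84 genes sufficed for 50% of the gain. Lower genes lost 5800236 normalized reads, with 14.0% in 10 genes and 47.2% in 100. In the libraries as a whole, the 100 highest genes held 23.8% in the juvenile, against 22.4% and 21.7% in the replicates. Reads are not per length, so these are shares of reads and not of molecules.

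The size of the change was then compared with the spread between replicates at the same level. Over all tested genes, 33.0% differed more than 2-fold between the juvenile and competent larva replicate 1 and 43.2% between the juvenile and replicate 2, against 23.3% between the replicates. At a mean above 2 to 10 normalized reads these shares were 50.5% and 57.0%, against 43.1% between replicates. At a mean above 1000 to 10000 they were 25.2% and 32.2%, against 11.3%. At above 10000 they were 34.0% and 42.1%, against 15.2%. Differences between the stages thus stood furthest above the replicate spread, as a ratio of shares, in the highest classes, where 580 and 6492 genes lay. The share that limma called was 0% of 2362 genes at a mean above 2 to 10 and 0.990% at above 10 to 100. It was 4.53% at above 100 to 1000, 7.35% at above 1000 to 10000 and 11.6% at above 10000. A gene at a low mean could hardly be called, since the pseudocount limits its log2 difference and the fitted spread is wide there. The low shares in these classes thus do not show that changes were smaller.

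**Figure D3:**
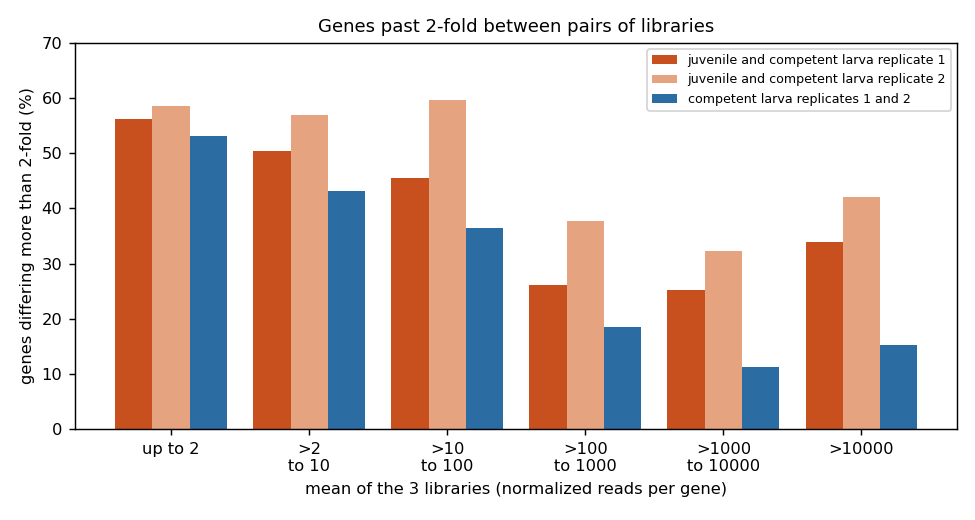
Bars give the percentage of tested genes that differed more than 2-fold between 2 libraries, by class of the mean over the 3 libraries in normalized reads per gene, for the juvenile and competent larva replicate 1, the juvenile and replicate 2, and the replicates themselves. The bars for replicates fall from 53.0% in the lowest class to 11.3% at means above 1000 to 10000, and the bars for the juvenile lie above them in each class.

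Direction also varied with level. The class mean takes 1 juvenile and 2 competent larva libraries. A gene high only in the larvae thus enters a higher class than one equally high only in the juvenile. This favours lower genes in the upper classes and higher genes in the lower ones under any scaling. How much of the pattern it makes was not tested. At a mean above 10 to 100, 25.6% of genes were past 2-fold higher and 11.1% past 2-fold lower in the juvenile. At a mean above 1000 to 10000 these shares were 10.1% and 12.4%, and above 10000 they were 14.5% and 16.9%. Against competent larva replicate 1 alone they were 11.1% and 14.1%, and 15.3% and 18.6%. Against replicate 2 alone the order was reversed, with 16.3% and 15.9%, and 24.0% and 18.1%. The median log2 difference in these classes was 0.10 and 0.15. Past both replicates, lower genes outnumbered higher ones in the upper 2 classes under each scaling. At above 1000 to 10000 the shares were 9.18% higher and 13.2% lower after quantile normalization, and 8.58% and 14.0% with equal totals. The excess of higher genes at above 10 to 100 did not hold up in the same way, as the shares were 18.0% and 17.4% after quantile normalization and 22.2% and 12.9% with equal totals. At above 2 to 10 it turned round, with 22.4% higher and 10.3% lower as deposited and 13.7% and 15.2% after quantile normalization, but not with equal totals, where the shares were 18.8% and 12.3%.

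The largest gaps were sought among genes above 0 in all 3 libraries, by the log2 difference between the juvenile and the nearer competent larva replicate. OFUSG17602 had 7389 normalized reads in the juvenile, against 5.09 and 3.93 in competent larva replicates 1 and 2. It rose by a log2 difference of 10.40 (SE 0.71, limma adjusted p = 0.0235), and adjusted p ranged from 0.0146 to 0.168 over the alternative settings. None of the 4 genes numbered before OFUSG17602 and the 4 after it was past 2-fold higher, and the gene 3 numbers after it fell, with 1048 normalized reads in the juvenile, against 4757 and 4504 in the replicates (limma adjusted p = 0.0406). OFUSG18182 had 8436 normalized reads in the juvenile, against 2.22 and 6.41 in the replicates. It rose by a log2 difference of 10.76 (SE 0.84, limma adjusted p = 0.0235), and adjusted p ranged from 0.0146 to 0.168 over the alternative settings. The gene with the next number after OFUSG18182 rose as well, with 2404 normalized reads in the juvenile, against 29.7 and 42.6 in the replicates (limma adjusted p = 0.0235).

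The genes with the widest gaps downward lay close together in the numbering. OFUSG05994 had 1.68 normalized reads in the juvenile, against 659 and 649 in competent larva replicates 1 and 2, a log2 difference of -7.93 (SE 0.62, limma adjusted p = 0.0235). OFUSG05997 had 11.3 normalized reads in the juvenile, against 2494 and 3449 in the replicates, a log2 difference of -7.90 (SE 0.45, limma adjusted p = 0.0235). The 2 genes numbered between OFUSG05994 and OFUSG05997 fell too. The first had 38.8 normalized reads in the juvenile, against 626 and 605 in the replicates (limma adjusted p = 0.0288), and the other had 129 in the juvenile, against 10638 and 11155 (limma adjusted p = 0.0235). The 2 numbers after OFUSG05997 were also past 2-fold lower, but did not pass the test. The gene numbered just before OFUSG05994 lay the other way, at 3086 normalized reads in the juvenile, against 1089 and 947 in the replicates, and did not pass the test either. The lowest and highest adjusted p of OFUSG05994 and OFUSG05997 over the alternative settings were 0.0146 and 0.168.

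Genes turned on or off were defined as those at or below 2 normalized reads on one side of metamorphosis and at or above 20 on the other, in both competent larva replicates. By this rule 65 genes (0.25%) were turned on in the juvenile and 40 (0.154%) were turned off. After quantile normalization the order was reversed, with 45 turned on and 60 turned off. Genes turned on had 20.3 to 1211 normalized reads in the juvenile with a median of 45.1, against medians of 0.171 and 0.740 in competent larva replicates 1 and 2. Of these, 17 reached 100 in the juvenile, and 4 were listed at 0 in both replicates. Genes turned off had a median of 1.17 normalized reads in the juvenile, against 56.3 and 62.0 in the replicates, where they ranged from 22.8 to 659. There 5 reached 100 in both replicates and 4 were listed at 0 in the juvenile. A value of 0 is an estimate and does not show that a gene was silent.

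These genes held little of the signal, with 0.0183% of the juvenile total for genes turned on, and 0.00830% and 0.0109% of the totals of competent larva replicates 1 and 2 for genes turned off. OFUSG05994 was the most abundant of the genes turned off by its level in the lower replicate. limma called 25 of the 65 genes turned on, against 528 of all 4338 higher genes, and 16 of the 40 turned off, against 548 of all 2661 lower genes. The calls rest on the same libraries as the rule for on and off. Against single libraries with the same limits, 153 genes were on in the juvenile and off in replicate 1 and 235 were on in the juvenile and off in replicate 2. Between the replicates, 34 were on in replicate 1 and off in replicate 2, and 23 the reverse. Of the 65 genes turned on, 27 lay in a run of 3 or more neighbouring numbers that were all past 2-fold higher. The same held for 1199 of all 4338 higher genes (27.6%). Of the 40 genes turned off, 19 lay in such a run of lower genes, against 375 of all 2661 lower genes (14.1%).

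The replicates did not lie at equal distance from the juvenile. Pearson's r of log2(value + 1), taken across genes that are not independent of each other, was 0.882 between the juvenile and competent larva replicate 1 and 0.845 between the juvenile and replicate 2, against 0.956 between the replicates. This order was most marked among the genes that were higher in the juvenile. Of these, 32.5% were more than 2-fold higher in replicate 1 than in replicate 2, and 8.39% were more than 2-fold higher in replicate 2, although the rule that chose them treats the replicates alike. Whether replicate 1 lay nearer because of the shared fertilization or because of its stage cannot be told apart. Over all tested genes these shares were 14.7% and 8.59%, and among genes lower in the juvenile they were 7.29% and 6.76%. Among the higher genes the shares were 28.9% and 9.67% after quantile normalization, and 30.6% and 9.63% with equal totals. Among the lower genes replicate 2 was more often the higher one under both scalings, so replicate 1 again lay nearer to the juvenile. The shares were 4.79% higher in replicate 1 and 10.6% higher in replicate 2 after quantile normalization, and 5.02% and 8.48% with equal totals. The higher genes had a median level of 261 normalized reads in the juvenile, against 38.2 in replicate 1 and 24.0 in replicate 2. Without competent larva replicate 1, 6994 genes were past 2-fold higher and 4234 lower in the juvenile, and without replicate 2 these numbers were 5156 and 3403.

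To examine whether changes occurred together along the numbering, genes were followed by the number in their identifier, which runs from 1 to 27050 with 90 numbers not in the table. Whether the numbers follow the order of genes on the chromosomes is not given in the sources used here. Of the genes past 2-fold higher with a tested gene at the next number, 34.4% were followed by another higher gene, against 16.7% of all tested genes. For genes more than 2-fold lower this share was 22.5%, against 10.2%. A higher gene was followed by a lower one in 7.35% of cases, against 10.2% lower genes over all tested genes. At a distance of 5 numbers the shares were 20.7% for higher and 12.0% for lower genes, and at 10 numbers they were 17.9% and 10.3%, near the shares over all tested genes.

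Neighbouring numbers also moved together between the replicates. Of genes more than 2-fold higher in competent larva replicate 1 than in replicate 2, 27.3% were followed by another such gene, against 14.7% of all tested genes. Across pairs of consecutive numbers, Pearson's r was 0.25 for the difference between juvenile and competent larva and 0.17 for the difference between the replicates (25161 pairs that share libraries). Levels themselves were also alike at consecutive numbers, with r = 0.24. Whether neighbours are near-identical copies among which reads were split is not known here, and their separate values are uncertain to that extent.

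**Figure D4:**
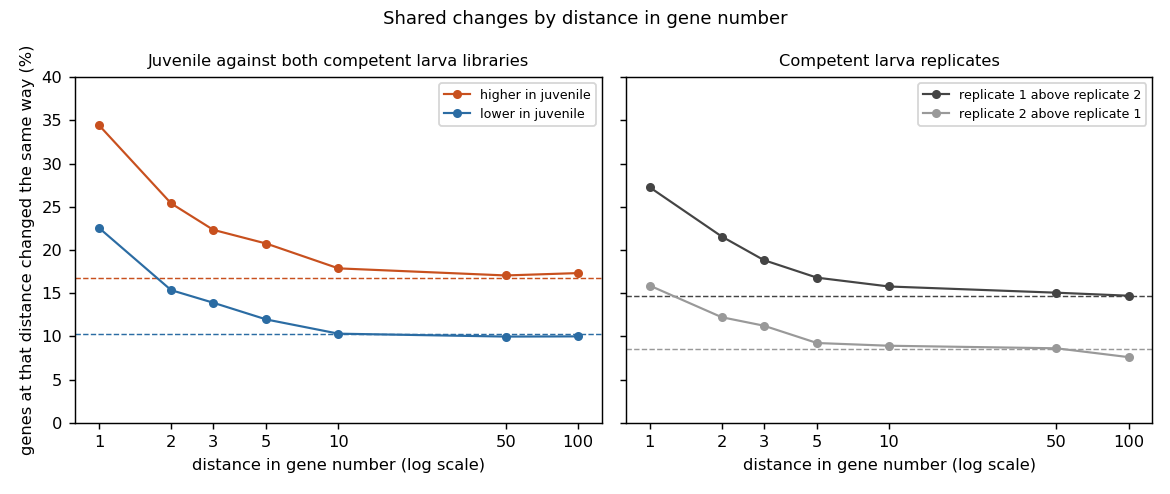
Points give the percentage of changed genes whose tested neighbour at a distance of 1 to 100 in gene number (log scale) changed more than 2-fold in the same direction, on the left for the juvenile against both competent larva replicates and on the right between the replicates, with dashed lines at the percentage over all tested genes. In each of the 4 groups the share was highest at a distance of 1 and near the dashed line from a distance of 10.

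Runs of 3 or more consecutive numbers that were all past 2-fold higher in the juvenile numbered 309 and held 1199 genes, 27.6% of the higher genes. Runs of lower genes numbered 97 with 375 genes (14.1%). After quantile normalization there were 220 runs with 825 genes for higher and 143 with 540 genes for lower genes. Between replicates, 187 such runs with 713 genes (18.6%) were higher in replicate 1 and 55 with 179 genes (8.02%) were higher in replicate 2. Of the runs higher in the juvenile, 64 had 5 or more genes, and of the lower ones 19. In 127 of the 309 higher runs every gene was higher in replicate 1 than in replicate 2, and in 12 every gene was higher in replicate 2. Of the lower runs these numbers were 30 and 13 of 97. Gene by gene, 70.6% of all higher genes and 51.5% of all lower genes were higher in replicate 1 than in replicate 2. limma called at least 1 gene in 118 of the higher runs and in 59 of the lower ones. Genes in higher runs were at a median of 119 normalized reads over the 3 libraries, against 122 for higher genes outside runs.

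The longest run of higher genes spanned gene numbers 19231 to 19245. Its 15 genes had 70.4 to 26799 normalized reads in the juvenile with a median of 311, against 6.85 to 5932 with a median of 64.5 in competent larva replicate 1 and 1.23 to 953 with a median of 10.1 in replicate 2. Every gene of this run was more than 2-fold higher in replicate 1 than in replicate 2, and none was called by limma. The longest run of genes higher in replicate 1 than in replicate 2 lay at the same place. It spanned numbers 19231 to 19246, with 16 genes. The next longest run spanned numbers 24368 to 24380, with 13 genes at a median of 341 normalized reads in the juvenile, against 85.1 and 18.3 in the replicates. Their log2 differences lay between 2.03 and 2.77 while their mean levels ranged from 25.2 to 18977. In this run 11 genes were more than 2-fold higher in replicate 1 than in replicate 2, and none was called by limma.

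The longest run of lower genes spanned numbers 15860 to 15874. Its 15 genes had 0 to 1623 normalized reads in the juvenile with a median of 58.8, against medians of 699 and 615 in competent larva replicates 1 and 2. limma called 11 of them, and log2 differences ranged from -5.27 to -3.46. The replicates were close together here, with 1 gene more than 2-fold apart. The run from 23334 to 23343 held 10 genes with a median of 5.27 normalized reads in the juvenile, against 245 and 367 in the replicates, and all 10 fell (limma adjusted p under 0.05). The runs named here were chosen for their length after the values were seen.

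One gene often held a large part of the reads of a long run. In the 64 longest higher runs the most abundant gene held a median of 54.1% of the summed normalized reads in the juvenile. It held more than 50% in 39 of these 64 runs. In the 19 longest lower runs the most abundant gene held a median of 52.5% of the competent larva mean. Stretches of consecutive genes outside runs were not compared, so whether such shares are particular to runs was not tested. The place of the most abundant gene varied among the runs named above. It was the last gene in the run from 15860 to 15874, with 71.6% of the sum, and in that from 23334 to 23343, with 95.9%. It was the first gene in the run from 24368 to 24380, with 86.0%, and gene 11 of 15 in that from 19231 to 19245, with 64.4%.

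**Figure D5:**
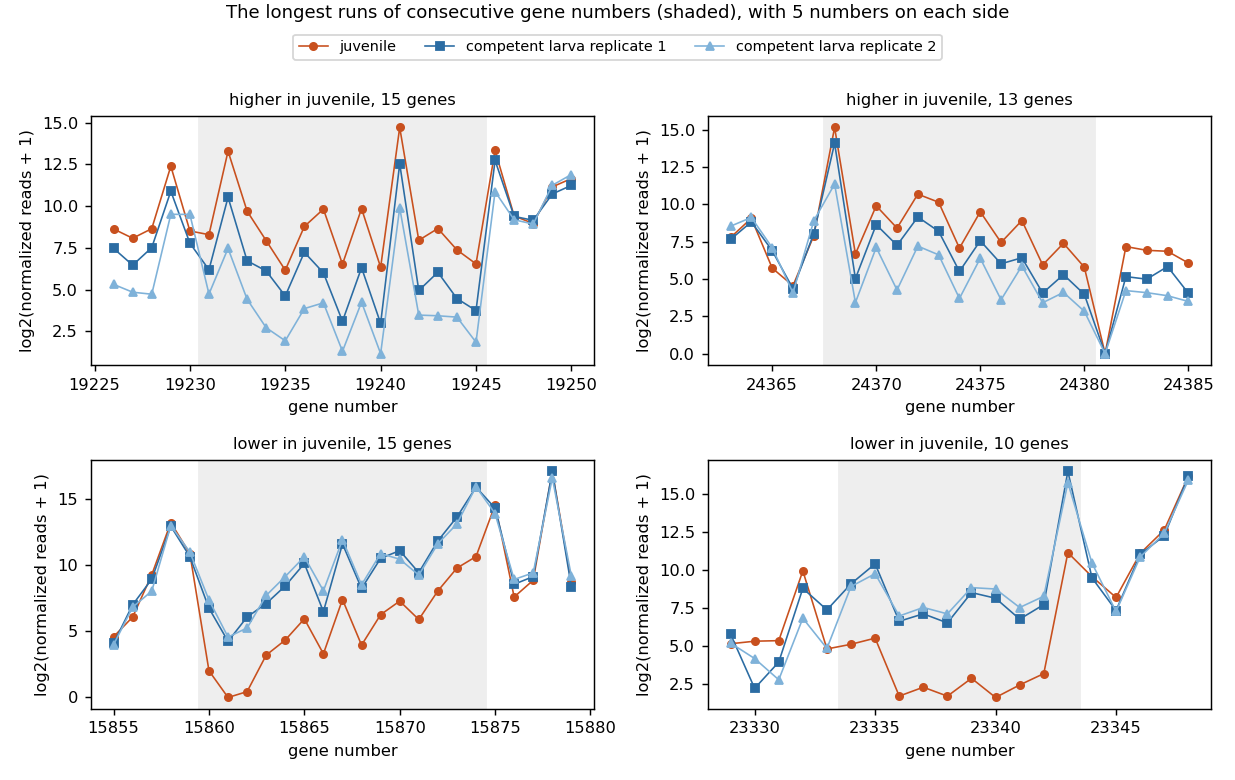
Points give log2(normalized reads + 1) in the juvenile and in competent larva replicates 1 and 2 by gene number, for the 2 longest runs of higher genes (top) and lower genes (bottom), shaded, with 5 numbers on each side. In the higher runs replicate 1 lies between the juvenile and replicate 2, and in the lower runs the replicates lie together above the juvenile.

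Transcripts of a gene could differ in direction. Of 3631 tested genes with several transcripts, 111 had 1 transcript past 2-fold higher and another past 2-fold lower in the juvenile, and in 77 of these the gene sum was past 2-fold in neither direction. In 814 genes a transcript was past 2-fold and the sum was not. Genes with several transcripts were past 2-fold higher in 14.5% and lower in 8.57% of cases, against 17.1% and 10.5% of 22338 genes with a single transcript.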

How the data were processed

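Expression was analysed in 1 juvenile and 2 competent larva libraries. The authors trimmed adaptors, pseudoaligned reads to their gene models with kallisto 0.46.2 and normalized the estimated reads between libraries with DESeq2 1.30.1, so the deposited values are a signal in normalized reads, not scaled to a fixed total or to transcript length. Their build is not given in the sources used here. Low values fell on no common step, so reads were not recovered and no count model was run. The juvenile and competent larva columns were used, and 24 further expression columns, of other samples including the earlier stages, and the accessibility files were not used.

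Transcripts were summed per gene, and genes above a value of 2 in at least 1 library were compared on log2(value + 1) by limma 3.58.1 under R 4.3.3, with a mean trend, 1 residual degree of freedom and Benjamini-Hochberg adjustment (two-sided, threshold 0.05). An exact permutation of 1 library against 2 cannot go below a one-sided p of 0.333. p-values measure only the spread between the competent larva libraries. The fit was tested on simulated data, where it recovered most changed genes but made more false calls than the nominal rate in most draws. The planted changes were larger than those of most genes past 2-fold here, so recovery of smaller changes was not tested. The named genes are the 2 widest gaps in each direction among genes above 0 in all libraries, since no identifier could be paired with a name. The comparison, its members and these rules were chosen with earlier results of these data known. Alternatives covered pseudocount, filter, scaling, single transcripts, fold, limits of on and off, and leaving out each competent larva replicate.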

Additional observations from a re-analysis of the deposited data

How the results depend on the processing

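Values are normalized estimates without a read depth, so precision at low levels is unknown, and the spread of the juvenile was not measured. Of 51 alternative counts of genes or runs, 31 were within 1.5 times the main count. limma called 1076 genes in the main setting, 1666 with a pseudocount of 10, 0 without a filter and 0 single transcripts, with 972 to 1494 in the other settings; the cause was not tested. A 4-fold limit left 1965 higher and 1127 lower genes, 107 runs of higher and 34 runs of lower genes, by construction. Without each competent larva replicate, higher genes numbered 5156 to 6994, lower genes 3403 to 4234, genes turned on 153 to 235 and genes turned off 58 to 85. Runs then numbered 391 to 640 for higher and 144 to 194 for lower genes, and 36.0% to 42.6% of higher genes were followed by another at the next number, while 19.9% to 26.9% of all tested genes were higher. With a pseudocount of 10 these shares were 31.2% and 13.6%. The settings that left out a competent larva replicate had no residual degrees of freedom and thus no limma test. Genes listed at 0 on the low side numbered 4 turned on and 4 turned off. With a floor of 5 they were 224 and 108, and with a level of 100 they were 17 and 5. The 100 highest genes held 23.0% of the juvenile total without its highest gene. No paired analysis was possible because the groups share only 1 replicate number. Scaling by level class, by replicate order and by neighbours was added after seeing the data.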
